A study of Tupaia belangeri with 2 samples.

Results

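FABP7, NES, VIM, SLC1A3 and TNC are 5 genes that mark radial glia and build their shape, transport and surroundings. They were taken by gene name, and are 5 of the 18543 names in the annotation of 23975 gene models. Their raw counts of unique molecular identifiers (UMIs, each marking 1 captured transcript) were described across cell groups and cell cycle states in single-cell libraries from the whole brains of tree shrew (Tupaia belangeri) embryos. There were 2 embryos at 4 to 5 postconceptional weeks (pcw), with 1 droplet library each and a single condition, and the labels name no treatment or genotype. The outer covering and the vessels were taken off before the tissue was dissociated with papain, and all brain regions were mixed in each library.

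Radial glia are the stem cells of the embryonic brain wall. Their cell bodies lie near the ventricle, a long fibre reaches the pial surface, and they divide to renew themselves and to give rise to neurons, which climb along the fibres. FABP7 (brain lipid binding protein) carries fatty acids in the cytoplasm, NES (nestin) and VIM (vimentin) form intermediate filaments, SLC1A3 (GLAST) takes up glutamate, and TNC (tenascin C) is a glycoprotein of the extracellular matrix. VIM and NES are also made by mesenchymal and vascular cells.

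Each of the 5 names had a model with counts. FABP7 had 18089 UMIs (8079 in embryo 1 and 10010 in embryo 2) and a second model of the same name with 0. VIM had 54457 UMIs, NES 9366, SLC1A3 2019 and TNC 849. Another name, VIME, has 2 models with 54 and 0 UMIs, which were left out. The low totals of SLC1A3 and TNC make their values the least precise of the 5.

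After removal of barcodes with fewer than 200 genes, 8408 cells of embryo 1 and 9327 of embryo 2 remained, with 38192755 and 35785697 UMIs and medians of 3539 and 3169 per cell. Haemoglobin made up 22.5% and 8.38% of these UMIs, and 18 barcodes occurred in both libraries. Clustering without the 5 genes gave 17 clusters. Clusters 2 and 9 were dividing cell-like, and clusters 4, 5 and 12 were unnamed. Cluster 4 (1436 cells) had 5 radial glia markers, PAX6, GLI3, SOX9, SFRP1 and PHGDH, but its leading genes held more dividing cell markers, with MCM3, MCM4 and MCM5 of DNA replication among them, so no cluster earned the name radial glia-like and cluster 4 is called by its number. Cluster 12 (356 cells) tied between markers of radial glia (SOX9, SFRP1 and PHGDH) and of astroglia, GJA1 and SPARCL1 among them, with VCAM1, BCAN and CLU among its leading genes. At a clustering resolution of 1.0 in place of 0.5, a cluster of 466 cells with these 3 leading genes was named astroglia-like. Cluster 5 (1364 cells) was led by DBX1, CDKN1C, DLL3, PAX3 and JAG1. Clusters 0, 1, 3, 6 and 7 were neuron-like, of inhibitory (0, 1 and 6) or excitatory type (3 and 7).

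All 5 genes were concentrated in clusters 2, 4, 5, 9 and 12, grouped here after their levels were seen. These clusters held 32.9% of the cells and 38.8% of the UMIs, but 90.7% of the TNC UMIs, 86.7% of NES, 84.6% of SLC1A3, 77.9% of VIM and 74.0% of FABP7. Levels below are UMIs per 1000000 UMIs of a cluster (CPM), given for embryo 1 and embryo 2. Levels of one gene are not compared with those of another, and the order of the clusters is a description with no test.

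**Figure D1:**
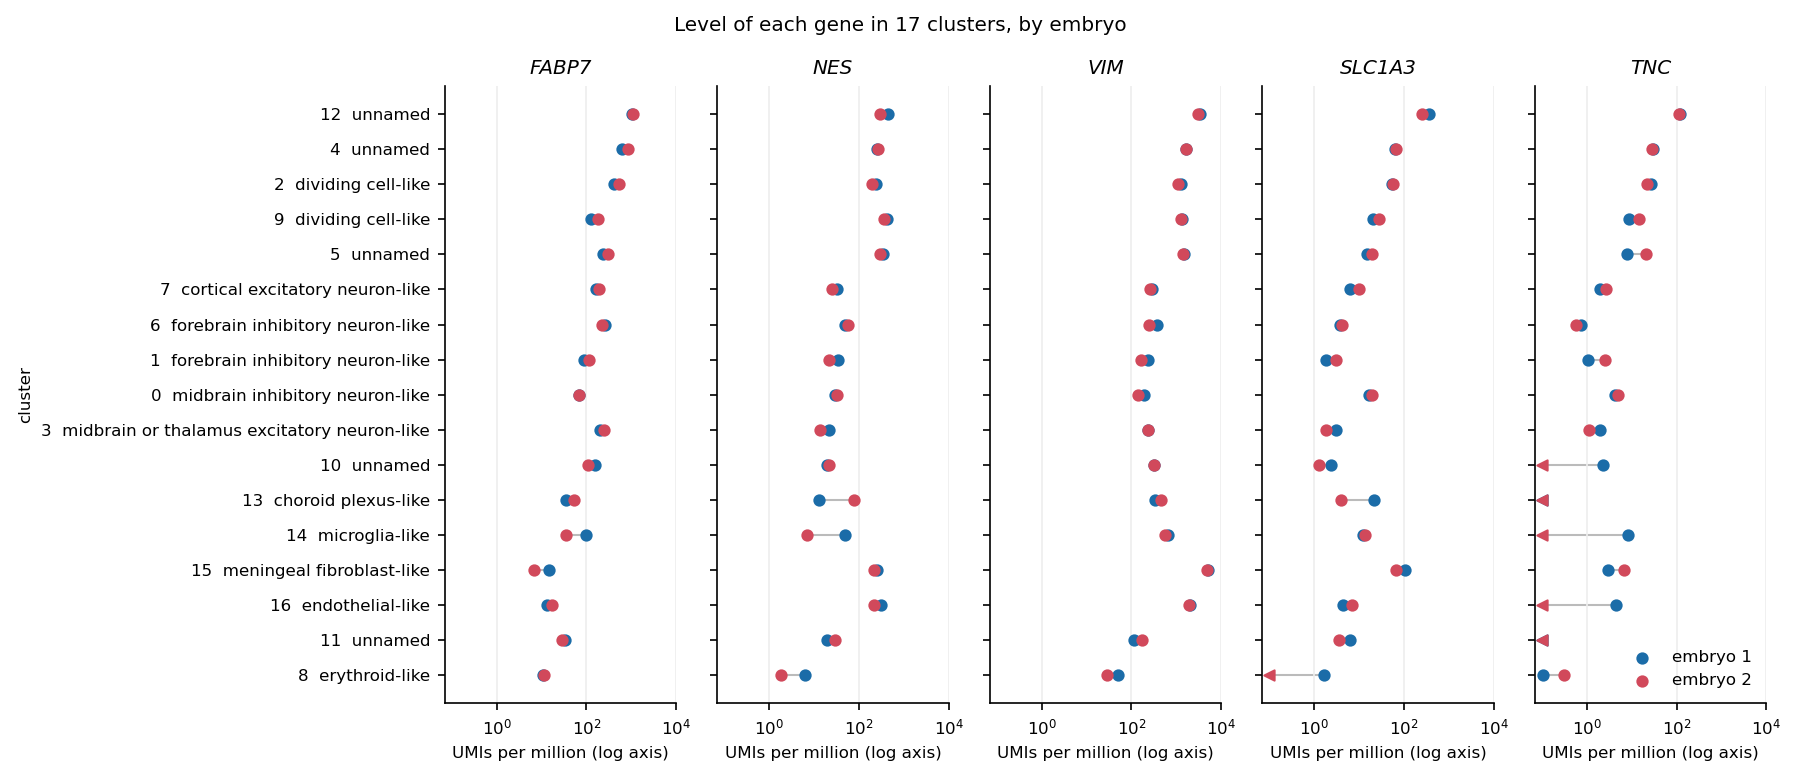
Level of each gene (CPM, log axis) in the 17 clusters, blue for embryo 1 and red for embryo 2; a triangle at the left edge marks a library with 0 UMIs. Cluster 12 is at or near the top in every panel, except that VIM is highest in cluster 15, and the erythroid-like cluster 8 lies low in every panel, with haemoglobin UMIs counted in its totals.

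FABP7 was highest in cluster 12, at 1011 and 1116 CPM, and next in cluster 4, at 610 and 838 CPM. The values of the embryos did not overlap between these clusters, nor between cluster 4 and the dividing cell-like cluster 2 (416 and 534 CPM). Dividing cell-like cluster 9, led by PGM5 and FZD10, was far lower, at 129 and 180 CPM, below the forebrain-type inhibitory neuron-like cluster 6 (256 and 217) and the midbrain or thalamus excitatory neuron-like cluster 3 (197 and 245). FABP7 was lowest in meningeal fibroblast-like cells (cluster 15, 14.7 and 6.85 CPM) and in erythroid-like cells (10.7 and 11.3). The erythroid-like place rests on haemoglobin in the totals: without haemoglobin UMIs FABP7 was at 90.9 and 92.5 CPM in these cells, above cluster 0 (69.3 and 67.5). The fold from the highest to the lowest mean was 98.5. It is imprecise, since the lowest mean (cluster 15) rests on 7 UMIs, and its 6.85 CPM in embryo 2 is below the 10.3 CPM of 3 counts.

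NES was high in a run of clusters, with levels that fell in small steps. Cluster 9 had 415 and 368 CPM, cluster 12 had 439 and 291, cluster 5 had 346 and 290, endothelial-like cells (cluster 16) had 314 and 214, and cluster 4 had 248 and 263. Each of these overlapped with the next in this list, but cluster 9 did not overlap with cluster 4. Meningeal fibroblast-like cells (247 and 216 CPM) and cluster 2 (235 and 192) followed close below. The drop came after cluster 2, with forebrain-type inhibitory neuron-like cluster 6 at 49.0 and 56.1 CPM and all other neuron-like clusters at 13.5 to 34.6 CPM.

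VIM was highest outside the neural lineage. Meningeal fibroblast-like cells reached 5129 and 4836 CPM, above cluster 12 (3384 and 2971), endothelial-like cells (2044 and 1936), cluster 4 (1664 and 1653) and cluster 5 (1511 and 1424), with no overlap between neighbours. The meningeal fibroblast-like and endothelial-like clusters held 7.65% of all VIM UMIs, against 2.98% of NES, 2.87% of SLC1A3, 0.471% of TNC and 0.0829% of FABP7. Neuron-like clusters lay between 141 and 366 CPM.

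SLC1A3 stood out in cluster 12, at 369 and 257 CPM. Meningeal fibroblast-like cells came next, at 106 and 65.1 CPM from 55 UMIs, and overlapped with cluster 4 (62.7 and 67.1). The dividing cell-like cluster 2 had 54.8 and 56.0 CPM, and cluster 9 had 20.9 and 27.2. Cluster 5, at 15.3 and 19.1 CPM, overlapped with neuron-like cluster 0 (16.7 and 19.5). In the meningeal fibroblast-like cells FABP7 had 8.47 and 3.64 UMIs per 100 cells, below its 12.5 and 15.6 in erythroid-like cells, while SLC1A3 had 61.0 and 34.5 per 100 cells against 1.92 and 0.

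TNC, the scarcest of the 5, was also highest in cluster 12, at 117 and 113 CPM. Cluster 4 had 30.5 and 28.6 CPM and cluster 2 had 26.8 and 22.2, with no overlap among these 3. Cluster 5 spread widely (7.86 and 20.7 CPM) and overlapped with cluster 9 (8.57 and 14.5). In the other 12 clusters TNC was at 8.25 CPM or below in both embryos. It had 0 UMIs in 400 cells of cluster 11, led by HBE1 and HBZ, which allows up to 4.61 and 10.9 CPM, and 0 in 167 choroid plexus-like cells, which allows up to 12.9 and 11.6 CPM.

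Erythroid-like cells were taken to lack these genes, which was not tested, and UMIs per 100 cells were set beside theirs. Their median depth was 12416 and 14370 UMIs per cell, against 2268 and 2184 in midbrain-type inhibitory neuron-like cluster 0. VIM had 45.2 and 32.9 UMIs per 100 cells in cluster 0, below the 60.2 and 39.8 of erythroid-like cells, and FABP7 had 16.6 and 15.8 there against 12.5 and 15.6. Per cell, VIM in clusters 0 and 1 and FABP7 in cluster 0 did not exceed the erythroid-like level beyond counting error in both embryos. This measure therefore cannot tell them from background, and whether they are background was not tested. The counting interval (exact 95% Poisson) of VIM lay wholly above the erythroid-like interval in both embryos in 13 of the other 16 clusters, that of FABP7 in 10, NES in 8, SLC1A3 in 6 and TNC in 5. For FABP7 these included neuron-like clusters 1, 3, 6 and 7, with 75.1 and 91.4 UMIs per 100 cells in cluster 3.

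Among neuron-like clusters SLC1A3 was highest in cluster 0, at 16.7 and 19.5 CPM, while clusters 1 and 3 had 1.80 to 3.15. Per 100 cells the values in cluster 0 were 4.02 and 4.57, against 1.92 and 0 in erythroid-like cells. The intervals did not overlap in embryo 2 but did in embryo 1. TNC in cluster 0 had 4.28 and 4.93 CPM from 34 UMIs.

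Shares of cells with a UMI were taken with each cell thinned to 2000 UMIs and shallower cells left out (32 and 13 of cluster 12, with medians of 3989 and 4028.5 UMIs, and 91 and 32 of cluster 4, with medians of 3874.5 and 3996.5). VIM was seen in 96.6% and 95.7% of 148 and 163 cells of cluster 12 and in 90.4% and 88.5% of 685 and 628 cells of cluster 4. FABP7 was seen in 63.5% and 65.6% of cluster 12 and 55.0% and 64.3% of cluster 4. SLC1A3 separated the clusters more, with 48.0% and 31.9% against 10.8% and 13.1%. TNC was seen in 18.9% and 17.8% of cluster 12 against 6.28% and 5.41% of cluster 4, and NES in 48.0% and 39.3% against 33.4% and 33.0%. In erythroid-like cells the shares were 7.28% and 5.29% for VIM and 1.85% and 1.76% for FABP7, and 0 of 756 and 0 of 227 cells had a TNC UMI, which allows up to 0.487% and 1.61% (exact 95% binomial bound). In cluster 0 they were 27.2% and 20.7% for VIM and 10.5% and 13.1% for FABP7, above erythroid-like cells at equal total UMIs, haemoglobin included. That order turned without haemoglobin in the totals, where VIM was at 436 and 236 CPM in erythroid-like cells and 189 and 141 in cluster 0, so these shares give no order between the 2. Without thinning, 97.2% and 98.3% of cluster 12 had a VIM UMI, and 60.6% and 47.2% an SLC1A3 UMI, against 24.5% and 18.6% and 1.02% and 0% of erythroid-like cells.

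Cells with several of the 5 genes were most frequent in cluster 12. In thinned cells, at least 3 of the 5 genes had a UMI in 60.8% and 47.9% of cluster 12, 26.4% and 29.8% of cluster 4, 22.0% and 18.8% of cluster 2, 11.4% and 14.5% of cluster 9, and 10.7% and 13.9% of cluster 5. Meningeal fibroblast-like cells had 10.4% and 5% of only 48 and 40 cells, and cluster 0 had 0.328% and 0.589%. All 5 genes were seen together in 6.76% and 4.29% of cluster 12.

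**Figure D2:**
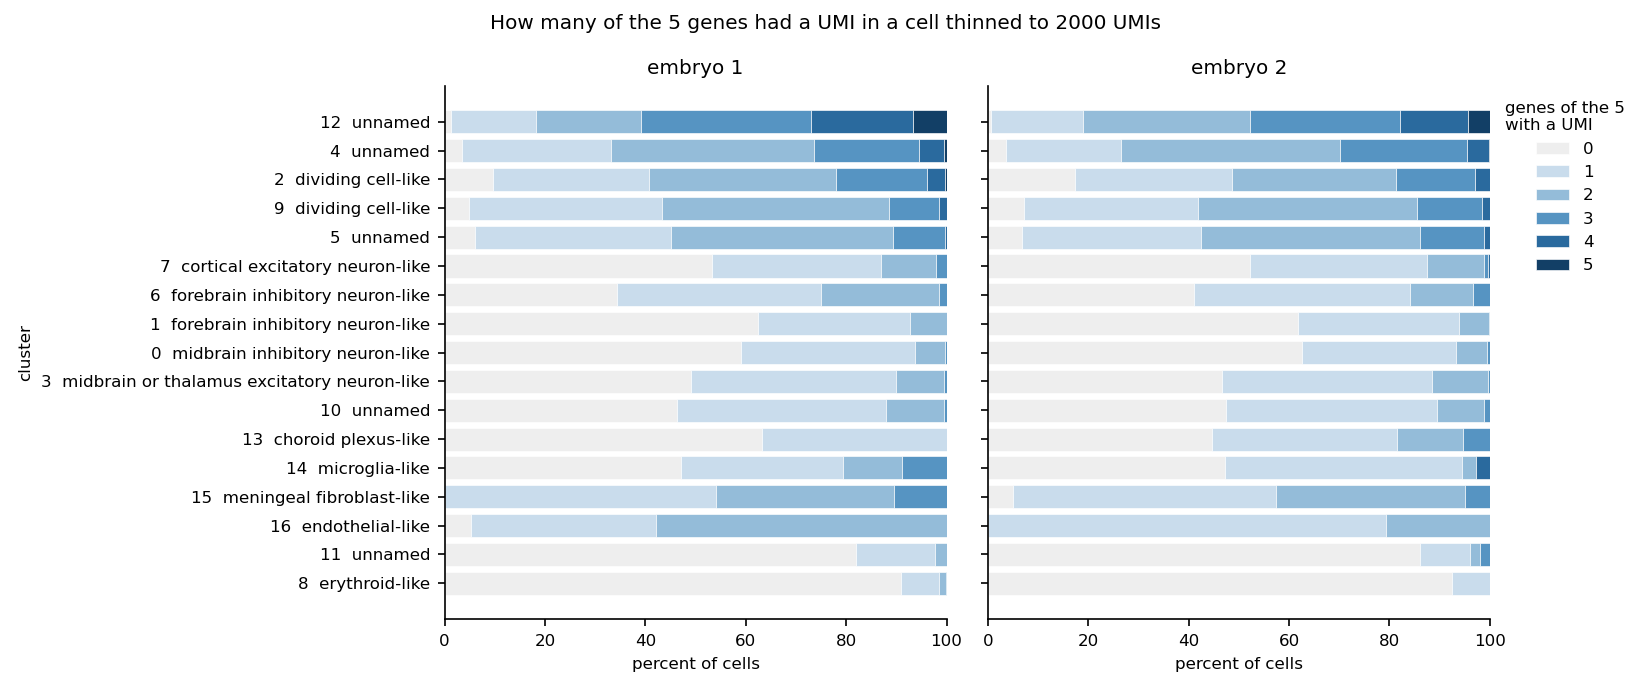
Percent of cells of each cluster in which 0 to 5 of the genes had at least 1 UMI, with cells thinned to 2000 UMIs; darker bars stand for more genes. Cells with 3 genes or more make up 60.8% and 47.9% of cluster 12 and under 1% of cluster 0.

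Within cluster 12, SLC1A3 was seen more often in cells with FABP7 than in cells without it. An SLC1A3 UMI was found in 59.6% and 43.0% of the 94 and 107 thinned cells with FABP7, and in 27.8% and 10.7% of the 54 and 56 cells without it. In cluster 4 the shares were 13.5% and 15.8% with FABP7 and 7.47% and 8.04% without. These shares are a description, since cells of 1 embryo are not replicates.

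With only 2 embryos, tests compared UMI sums per embryo and group, with the embryo as a block, in edgeR's quasi-likelihood fit with Benjamini-Hochberg adjustment over all genes tested. Cells, clusters and genes came from the same libraries. The 5 genes and the listed genes took no part in the clustering, but they were chosen with earlier results of these data known. The cluster standing in for radial glia, whose top marker type was radial glia, was picked after the clusters were seen. Higher levels of radial glia genes there than in neuron-like cells were therefore likely in advance. The calls and list counts below describe these differences and are no independent test of them.

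The first comparison asked how much higher the genes were in cluster 4 than in the mean of the neuron-like classes. All 5 were called higher, where 54.5% of the 10653 genes tested were called, 28.1% higher and 26.5% lower. In the fit TNC differed most, by 3.89 on the log2 scale (SE 0.21, adjusted p = 5.04e-25), then SLC1A3 by 3.70 (SE 0.15, adjusted p = 1.46e-31) and NES by 3.41 (SE 0.09, adjusted p = 1.74e-43). VIM differed by 3.11 (SE 0.07, adjusted p = 1.32e-46) and FABP7 by 2.57 (SE 0.05, adjusted p = 3.81e-48). In linear terms the folds ran from 5.92 for FABP7 to 14.9 for TNC. With library totals in place of the fitted scaling, the median of all genes moved to -0.19 and the share of calls that were higher went from 51.5% to 39.5%. Many of the neuron-like counts were not above the erythroid-like level per cell in both embryos, by separate counting intervals: those of TNC and SLC1A3 in all 5 neuron-like clusters, of NES in clusters 0, 1, 3 and 6, of VIM in clusters 0 and 1 and of FABP7 in cluster 0. Separate intervals that must part in both embryos are a stricter rule than a test of the difference, so such counts can still be higher. The part of these counts in the folds, and in the order of the folds among the genes, was not tested.

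The second comparison set the dividing cell-like class against cluster 4. Of the 5 genes, 4 were called lower and none higher, where 18.9% of the genes tested were called, 9.38% higher and 9.56% lower. FABP7 fell by 1.01 on the log2 scale (SE 0.06, adjusted p = 2.87e-22) and VIM fell by 0.50 (SE 0.09, adjusted p = 2.99e-05). SLC1A3 fell by 0.57 (SE 0.14, adjusted p = 0.000878) and TNC fell by 0.59 (SE 0.17, adjusted p = 0.00778), and both calls were lost with DESeq2 (adjusted p = 0.0585 and 0.165) and without the embryo block in edgeR (adjusted p = 0.0593 and 0.14). NES did not pass the test, with a difference of 0.05 and an interval from -0.12 to 0.22 (adjusted p = 0.747). The class sums clusters 2 and 9, which lay on either side of cluster 4 in NES. Cluster 2 had 235 and 192 CPM and cluster 9 had 415 and 368, against 248 and 263 in cluster 4. The 2 clusters also differed in the called genes SLC1A3, TNC and FABP7. SLC1A3 was at 54.8 and 56.0 CPM in cluster 2 and 20.9 and 27.2 in cluster 9, against 62.7 and 67.1 in cluster 4. TNC was at 26.8 and 22.2, and 8.57 and 14.5, against 30.5 and 28.6. FABP7 was at 416 and 534, and 129 and 180, against 610 and 838. VIM was at 1243 and 1105 CPM in cluster 2, which overlapped with the 1354 and 1243 of cluster 9. The part of each cluster in these falls was not tested. FABP7 fell the farthest of the 5, and 4.53% of the genes tested lay at least as far down.

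**Figure D3:**
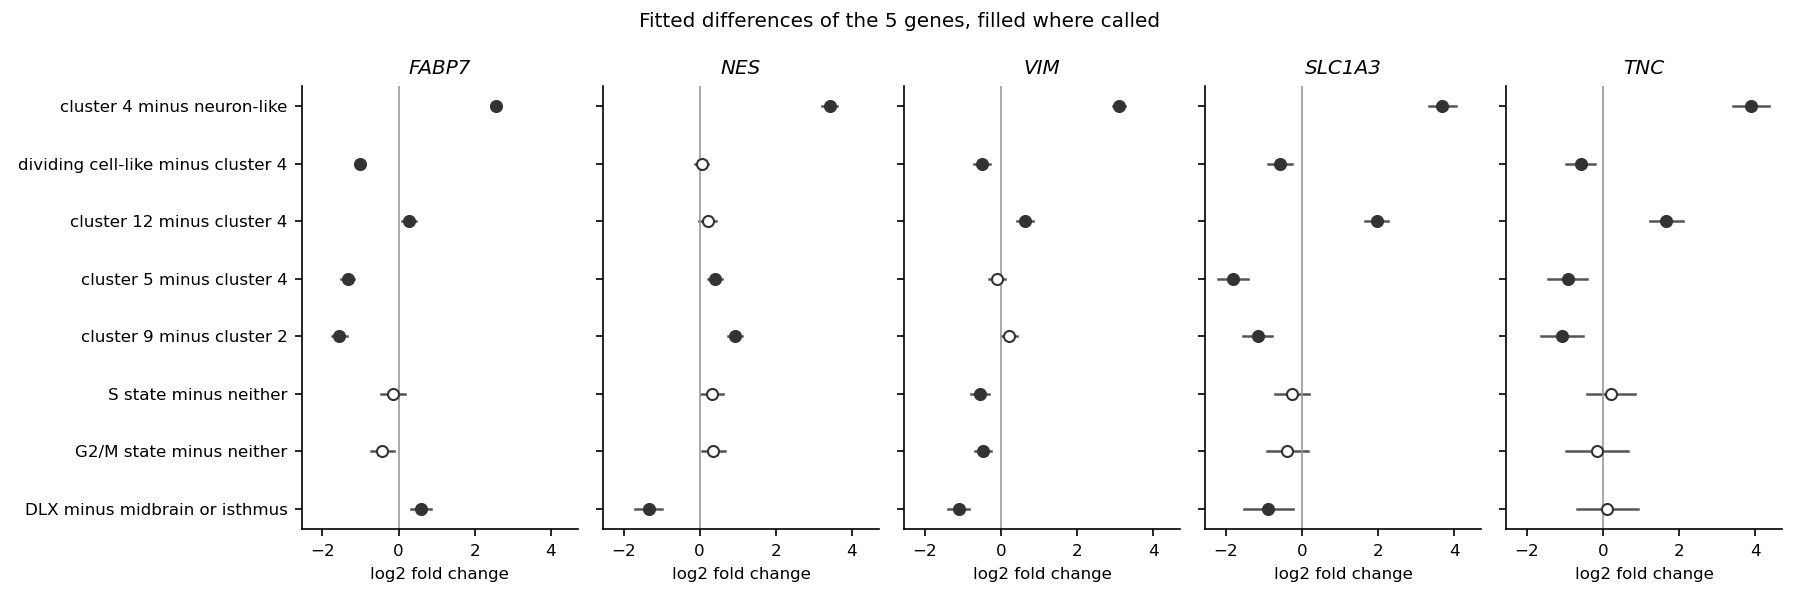
Fitted log2 fold changes of the 5 genes in 8 comparisons, with 95% intervals as lines; filled points passed an adjusted p of 0.05. All 5 genes are far above 0 in cluster 4 against neuron-like classes, and in dividing cell-like cells against cluster 4 only NES has an open point.

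Clusters that differed in level were then compared directly. These comparisons were added after the levels had been seen, so the pairs were chosen on the same counts that the fits use. Their calls and adjusted p-values describe differences already seen and are no independent test of them. Cluster 12 was higher than cluster 4 in 4 of the 5 genes, where 24.7% of 10574 genes were called, 11.7% higher and 13.1% lower. SLC1A3 was higher by 1.97 on the log2 scale (SE 0.14, adjusted p = 6.69e-18) and TNC by 1.66 (SE 0.20, adjusted p = 1.39e-09). VIM was higher by 0.64 (SE 0.10, adjusted p = 5.10e-07) and FABP7 by 0.27 (SE 0.08, adjusted p = 0.00798), but the FABP7 call was lost with DESeq2 (adjusted p = 0.169) and without the block in edgeR (adjusted p = 0.335). NES did not pass, at 0.21 (interval -0.01 to 0.43, adjusted p = 0.149), but passed with library totals (0.51, adjusted p = 0.000391), with RLE size factors (0.36, adjusted p = 0.00846), with no gene filter and without the highest doublet scores. This comparison moved with the scaling: 47.2% of all calls were higher, against 61.4% with RLE size factors and 74.5% with library totals, where the median of all genes was 0.23. Astroglia markers summed to 966 and 777 CPM in cluster 12 and 55.0 and 57.2 in cluster 4. The same list summed higher outside the neural lineage, to 3161 and 2204 CPM in meningeal fibroblast-like cells and 2500 and 2764 in endothelial-like cells. Radial glia markers went the other way from the 5 genes, at 1699 and 1656 CPM in cluster 12 and 2569 and 2354 in cluster 4. Dividing cell markers were at 504 and 608 CPM in cluster 12 and 1608 and 1670 in cluster 4. Erythroid markers were at 20187 and 2464 CPM in cluster 12 and 6795 and 4693 in cluster 4. The part of these in the result was not tested.

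Cluster 5, of DBX1 and DLL3, was lower than cluster 4 in 3 of the 5 genes and higher in 1, where 18.6% of genes were called, 8.38% higher and 10.2% lower. FABP7 fell by 1.34 on the log2 scale (SE 0.08, adjusted p = 1.33e-20), SLC1A3 fell by 1.81 (SE 0.19, adjusted p = 7.09e-12) and TNC fell by 0.92 (SE 0.24, adjusted p = 0.00307). NES rose by 0.40 (SE 0.09, adjusted p = 0.000245). The TNC and NES calls were lost with DESeq2 (adjusted p = 0.0693 and 0.0953) and without the block in edgeR (adjusted p = 0.0509 and 0.219). With library totals 30.3% of all calls were higher, against 45.0%. VIM did not pass, at -0.09 (interval -0.30 to 0.12).

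Cluster 9 was set against cluster 2, both dividing cell-like. FABP7 fell by 1.56 on the log2 scale (SE 0.09), SLC1A3 fell by 1.15 (SE 0.18) and TNC fell by 1.07 (SE 0.26), while NES rose by 0.93 (SE 0.08), where 9.89% of genes were called, 4.84% higher and 5.05% lower. VIM was at 0.21 (adjusted p = 0.223) and did not pass. The TNC call was lost with DESeq2 (adjusted p = 0.0857) and without the block in edgeR (adjusted p = 0.0562), and with library totals 37.1% of all calls were higher, against 48.9%. In this pair and in cluster 5 against cluster 4, FABP7, SLC1A3 and TNC were lower and NES higher. The comparisons hold different clusters of the same embryos. Clusters 5 and 9 both had HS3SB among their leading genes, with PAX3 in cluster 5 and FZD10 in cluster 9. PAX3 and FZD10 are genes of the midbrain or isthmus gate described below, and the part of brain region in both comparisons was not tested.

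Cell cycle states were drawn because the phase calls of the standard gene lists had put 66.6% of neuron-like cells in G2/M. A cell of clusters 2, 4 or 9 with at least 2000 UMIs, thinned to 2000, was called G2/M when it had more than 6 UMIs of 10 G2/M genes, otherwise S when it had more than 8 UMIs of the 38 named genes of the S list, and otherwise neither. These limits are the 99th percentile of neuron-like cells. A cell over both limits counted as G2/M, so S holds only cells not over the G2/M limit, and G2/M can hold S cells. At resolution 1.0, 1014 cells formed a cluster led by histone genes, with PCNA, MCM3 and MCM5 raised beside MKI67 and TOP2A. How many S cells the G2/M state holds was not tested. G2/M held 63.0% and 60.9% of 1973 and 1722 cells, S held 10.8% and 11.7% and neither 26.2% and 27.4%. In neuron-like cells 1.08% and 0.821% were G2/M. From 1 UMI below the G2/M limit to 2 above it lay 140 and 117 cells, and 164 and 155 lay as near the S limit.

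States were compared with the cluster held as a covariate, since the clusters differ in their share of each state. VIM was at 1756 and 1714 CPM in neither, 1368 and 1304 in S and 1263 and 1156 in G2/M, with no overlap between neither and either other state. It fell in both, by 0.55 in S (SE 0.10, adjusted p = 0.000291) and by 0.46 in G2/M (SE 0.09, adjusted p = 0.000614). Without embryo 2 both calls were lost (adjusted p = 0.437 and 0.287). So 1 of the 5 genes was called in G2/M, where 5.48% of the 6282 genes tested were called (4.54% higher and 0.939% lower), and 1 of the 5 in S, where 6.88% were called (4.82% higher and 2.05% lower).

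FABP7 was at 594 and 825 CPM in neither, 526 and 674 in S and 325 and 428 in G2/M. Its levels in G2/M lay below those in neither, but with the cluster held its difference was -0.43 in G2/M (interval -0.74 to -0.12), which did not pass (adjusted p = 0.0564). It passed with RLE size factors (adjusted p = 0.0316), with no gene filter (adjusted p = 0.0155) and without the highest doublet scores, where it was -0.88 (adjusted p = 6.89e-10). That last fit had 10 sums against 14 in the main fit, so its groups differed as well as its cells. In S FABP7 was at -0.15 (adjusted p = 0.600).

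NES did not pass in either state, at 0.36 in G2/M (interval 0.05 to 0.67, adjusted p = 0.130) and 0.32 in S (interval 0.03 to 0.61, adjusted p = 0.136). Its levels were 229 and 233 CPM in neither, 314 and 287 in S and 289 and 255 in G2/M. SLC1A3 did not pass, at -0.38 in G2/M (adjusted p = 0.456) and -0.26 in S (adjusted p = 0.495). TNC did not pass either, at -0.16 and 0.21, with wide intervals (-0.98 to 0.66, and -0.41 to 0.84). With clusters 5 and 12 included, chosen after seeing the data, FABP7 (-0.53, adjusted p = 0.00753) and NES (0.48, adjusted p = 0.00783) passed in G2/M, and NES passed in S (0.42, adjusted p = 0.0118).

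**Figure D4:**
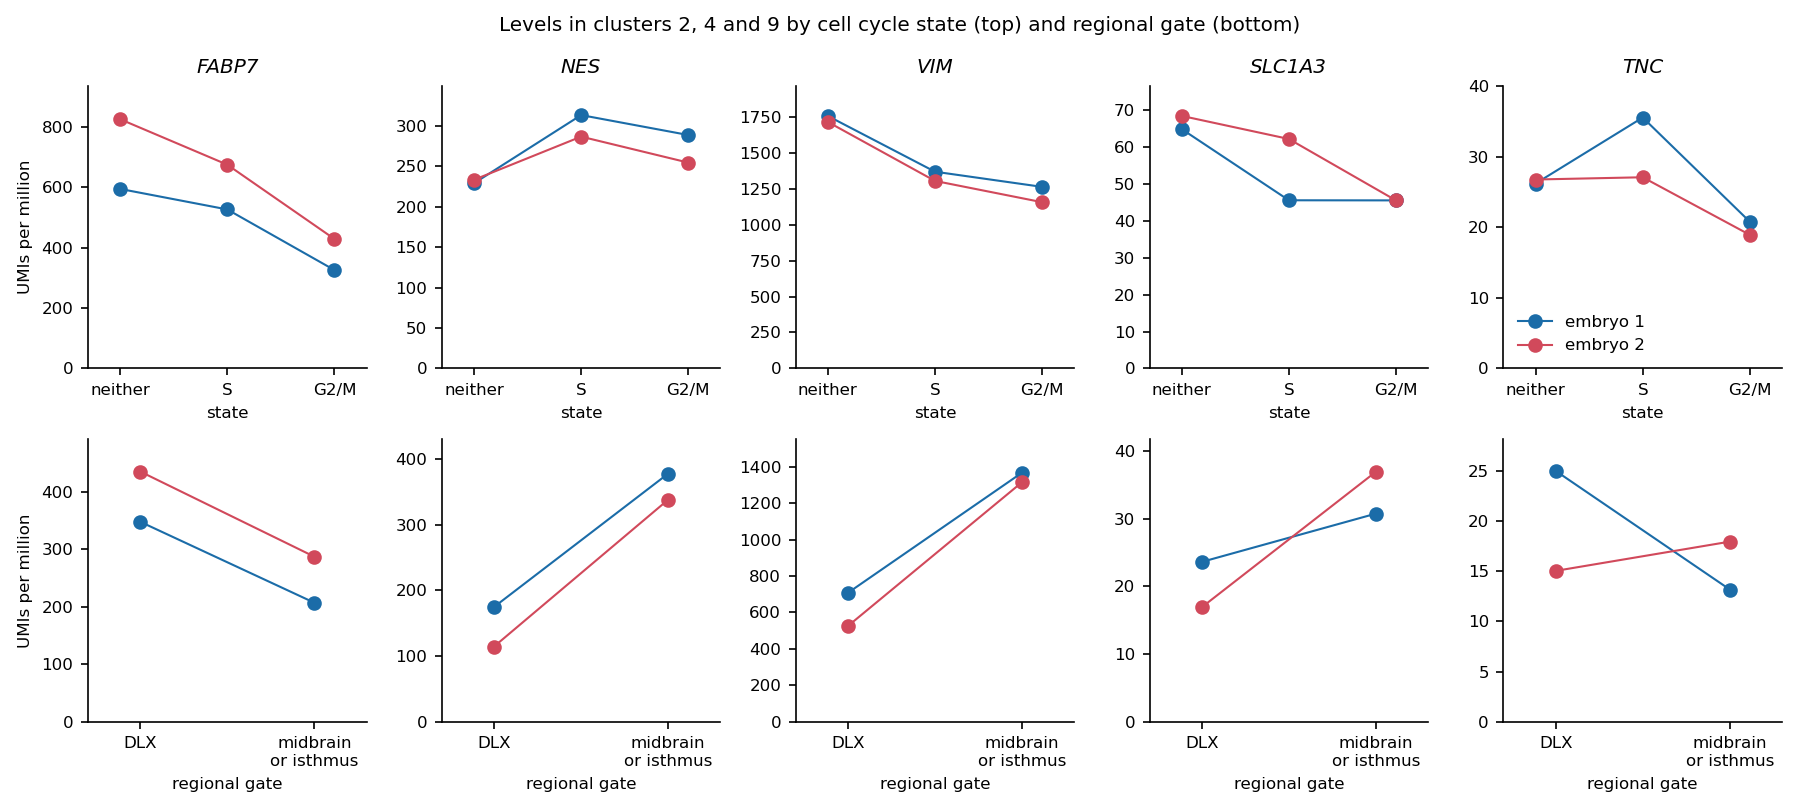
Levels (CPM) of the 5 genes in clusters 2, 4 and 9, for embryo 1 (blue) and embryo 2 (red), by cell cycle state in the top row and by regional gate in the bottom row. FABP7 and VIM are highest in the neither state, and NES, VIM and SLC1A3 are lower in the DLX gate than in the midbrain or isthmus gate in both embryos.

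Regional gates asked in cells of which brain regions the genes were high. Cells of clusters 2, 4 and 9 were DLX-positive with a UMI of DLX1, DLX2, DLX5 or DLX6 (595 cells), genes of inhibitory forebrain progenitors, or midbrain or isthmus with EN1, EN2, PAX3, PAX7, FZD10 or CNPY1 (924 cells). The 49 cells with genes of both gates and the 2540 cells with neither were not in the fit. Those 2540 cells had 514 and 736 CPM of FABP7, 1558 and 1579 of VIM, 64.1 and 73.2 of SLC1A3 and 28.9 and 27.7 of TNC. These levels lay above those of both gates in both embryos. NES, at 251 and 252 CPM, lay between the gates. A gate needed only 1 UMI, so the 2540 cells can hold cells of either region whose gate genes were missed. Their median depth was 3948 and 4192 UMIs per cell. It was 4767 and 4319 in DLX-positive cells and 5292.5 and 5386 in midbrain or isthmus cells. The part of depth in these levels was not tested. The gates were compared directly, with the called phase as a covariate, from the same phase calls that put 66.6% of neuron-like cells in G2/M. The fit had 8 sums and 4 residual degrees of freedom. This comparison was added after the levels had been seen, so its calls are not independent of them.

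DLX-positive cells were lower than midbrain or isthmus cells in 3 of the 5 genes and higher in 1, where 19.4% of 5467 genes were called, 9.15% higher and 10.3% lower. NES was at 175 and 115 CPM in DLX-positive cells and 378 and 338 in midbrain or isthmus cells, and fell by 1.33 on the log2 scale (SE 0.13, adjusted p = 2.36e-10). VIM was at 707 and 525 CPM against 1367 and 1315, and fell by 1.11 (SE 0.10, adjusted p = 3.79e-11). SLC1A3 was at 23.6 and 16.9 CPM against 30.7 and 36.9, and fell by 0.89 (SE 0.23, adjusted p = 0.00487). None of these groups overlapped, but the SLC1A3 call was lost with DESeq2 (adjusted p = 0.0801) and without embryo 2 (adjusted p = 0.618).

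FABP7 went the other way, at 348 and 435 CPM in DLX-positive cells and 207 and 287 in midbrain or isthmus cells, and was higher by 0.59 (SE 0.10, adjusted p = 1.20e-05). TNC did not pass, at 0.12 (interval -0.69 to 0.93), and its levels overlapped, from 13.2 to 25.0 CPM over both gates.

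The gates held different shares of the clusters, and 857 of the 924 midbrain or isthmus cells lay in clusters 2 and 9. With the cluster in place of the phase as covariate, NES (-0.83, adjusted p = 0.000321), VIM (-1.20, adjusted p = 1.46e-08) and SLC1A3 (-1.71, adjusted p = 7.77e-05) were still called lower in DLX-positive cells, while FABP7 turned from higher to lower (-0.42, adjusted p = 0.0497). In clusters 2 and 9 pooled, FABP7 was at 319 and 312 CPM in 470 DLX-positive cells and 178 and 255 in 857 midbrain or isthmus cells, with no overlap. These clusters themselves differ in FABP7, at 416 and 534 CPM in cluster 2 and 129 and 180 in cluster 9. The part of their mix in this difference was not tested. Within cluster 4 alone FABP7 was at 473 and 885 CPM in 125 DLX-positive cells and 606 and 697 in 67 midbrain or isthmus cells, which overlapped. VIM in cluster 4 was at 1049 and 791 CPM against 1662 and 1661, with no overlap.

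The genes that followed the 5 most closely were sought over the 17 clusters, among 7909 named genes with at least 100 UMIs in each embryo, by the lower of the correlations of log2(CPM + 5) in embryo 1 and embryo 2. The 17 points share their libraries and depth. FABP7 was nearest to FSTL5 (r = 0.918), PTPRZ1 (0.904), SYT11 (0.885), FAM181B (0.870) and NPAS3 (0.858). NES was nearest to TCF7L1 (0.911), PAWR (0.901), YAP1 (0.895), PTN (0.888) and VIM (0.864). VIM was nearest to LGALS1 (0.946), ATL3 (0.931), PTN (0.920), RCN1 (0.917) and S100A13 (0.904). SLC1A3 was nearest to PLPP3 (0.898), GSTT2B (0.856), CRISPLD1 (0.832), TNC (0.811) and PARD3B (0.794). TNC was nearest to SLIK2 (0.894), FGFR3 (0.889), MTTP (0.887), SLC7A10 (0.861) and IGSF11 (0.850).

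Between the 5 genes, NES and VIM were the most alike by the lower of the values in the embryos (r = 0.920 in embryo 1 and 0.864 in embryo 2), followed by SLC1A3 and TNC (0.811 and 0.897), which were the more alike in embryo 2. FABP7 and VIM were the least alike (0.308 and 0.266). FABP7 and TNC stood at 0.708 in both embryos.

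Relatives of the 5 genes were read in the comparisons of cluster 4 with neuron-like classes and of dividing cell-like cells with cluster 4, as lists of genes related by family or process, given by their counts beside the median of all genes tested (-0.0026 in cluster 4 against neuron-like classes and -0.04 in dividing cell-like cells against cluster 4). Over all genes tested, 28.1% were called higher and 26.5% lower in the first of these, and 9.38% higher and 9.56% lower in the second, and the counts of each list stand beside these shares. Of 15 other intermediate filament genes and partners 8 were tested, 3 higher and 5 lower in cluster 4, with a median of -0.64. Neuronal filament proteins INA (-4.40 on the log2 scale) and NEFM (-3.93) were among the lower and the linker PLEC (1.37) among the higher. In dividing cell-like cells 4 of the 8 were higher and none lower, among them the lamins LMNB1 (1.08) and LMNB2 (0.85) and NEFM (0.77).

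Of 7 other fatty acid binding proteins 1 was tested, FABP5, at -0.13 and -0.16, and it passed in neither comparison. Of 7 glutamate and neutral amino acid transport genes 5 were tested. In cluster 4, 3 were higher and 2 lower. The glutamate transporter SLC1A2 was at 0.76 (SE 0.33), the glutamine synthetase GLUL at 0.68 (SE 0.08) and SLC1A1 at -2.36 (SE 0.17). In dividing cell-like cells 2 were lower, SLC1A2 (-1.53) and SLC1A6 (-0.65).

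Of 15 tenascins, lecticans and receptors 10 were tested, 6 higher and 1 lower in cluster 4, with a median of 1.60. The lectican BCAN was higher by 3.73 (SE 0.73), the integrin subunit ITGB5 by 3.33 (SE 1.01) and the growth factor receptor EGFR by 2.57 (SE 0.94). In dividing cell-like cells 4 were lower, led by NCAN (-0.78), the receptor phosphatase PTPRZ1 (-0.56) and VCAN (-0.43).

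Of 10 genes known from outer radial glia 7 were tested, 5 higher and none lower in cluster 4, with a median of 1.52. ITGA2 was higher by 4.79 (SE 0.42), HOPX by 4.10 (SE 1.04) and MOXD1 by 3.82 (SE 0.24). In dividing cell-like cells ITGA2 (-1.17) and MOXD1 (-0.64) were lower. Of 15 Notch, BRN and NFI regulators 10 were tested, 7 higher and 1 lower in cluster 4. NOTCH3 (4.09, SE 0.50), NOTCH2 (3.78, SE 0.33) and ID1 (2.55, SE 0.57) were farthest up. In dividing cell-like cells NFIX (-0.71) and NFIA (-0.69) were lower and the POU-domain factor POU3F2 (0.59) was higher.

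Of 8 pan-neuronal genes 4 were tested, and all 4 were lower in cluster 4. SNAP25 was at -6.49 (SE 1.12), STMN2 at -4.07 (SE 0.14) and DCX at -3.02 (SE 0.18). In dividing cell-like cells STMN2 was higher than in cluster 4 by 0.73 on the log2 scale.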

How the data were processed

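Single-cell transcriptomes were measured in 2 embryos, 1 library each. Per the submitters' notes and the study's methods, reads were checked with fastp and counted with Cell Ranger 3.1.0 on the TS_2.0 assembly. The authors deposited raw UMI counts per gene model and barcode, without normalization. The 5 genes and all lists were chosen with earlier results of these data known.

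Cells with at least 200 genes were kept. Counts were scaled to 10000 per cell, and the 2000 most variable genes, without the 5 genes and the listed genes, gave 20 principal components. A graph of 20 neighbours was clustered with leidenalg 0.10.2 (resolution 0.5, scanpy 1.11.5, Python 3.11.15). A cluster was named from at least 3 markers raised 2-fold and seen in at least 10% of cells, unless types tied or another type had more markers among its leading genes. No cluster earned the name radial glia-like, so cluster 4, whose top type was radial glia, stood in for that class. This was chosen after the clusters were seen.

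UMI sums per embryo and group with at least 20 cells in each embryo went into quasi-likelihood fits of edgeR 4.0.16 under R 4.3.3 (filterByExpr, TMM, embryo as a block since its cells come from 1 animal, Benjamini-Hochberg, threshold 0.05). Intervals of log2 differences use the t distribution at the fit's residual degrees of freedom. The p-values also borrow scatter from all genes tested, so they can be far smaller than these intervals imply. With 1 library per embryo, p-values set each difference against the scatter left after the group, covariate and embryo terms in these 2 animals. They do not cover the spread over other animals. The planned comparisons of S and G2/M phases with G1 could not be fitted, because the phase calls left too few G1 cells (3.36% of 4108 cells of clusters 2, 4 and 9). States replaced them, and these and the comparisons of clusters and of 2 regional gates were added after seeing the data. The planned comparisons among regional gates are not reported here. Named genes are the 5 in every comparison, the 5 most alike to each over clusters, and up to 3 called genes per list with the largest change. Alternatives were RLE or library-total scaling, no gene filter, DESeq2 1.42.0, no block, other cell and doublet filters, resolution 1.0, thinned calls and each embryo left out. The fits were tested on simulated data. Scrublet's own threshold called 0 and 1 cells, so doublets were kept. Levels have exact 95% intervals that, like the limit of 3 counts for a count of 0, cover counting error only.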

Additional observations from a re-analysis of the deposited data

Results flagged for a closer look

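Among barcodes with fewer than 200 genes, which no fit used, 1191 barcodes held 5967338 UMIs and UMIs of all 5 genes, with 1 UMI of TNC. FABP7 had 38 UMIs there. NES had 15. VIM had 180. SLC1A3 had 4. The VIME model, left out because its name is not VIM, had 54 UMIs. All but TNC stood above the limit of 3 counts. Groups of 2 embryos were not tested for a sample standing apart.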

How the results depend on the processing

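Of 375 alternative values of the genes' log2 differences, 319 stayed the same and 7 reversed. The same means the direction and side of the threshold, or, in fits with no test, a value near the main one for its SE. Another 16 gained a call, 17 lost it and 16 with no test moved. Of 65 alternative counts of genes called, 51 stayed within 1.5 times. Of 89 alternative values of the levels in clusters 4, 9, 12 and 15, counting those of the highest cluster, 12 moved, and all 20 thinned shares moved. Haemoglobin left out of the totals raised cluster 8, as given with the levels. The cause was not tested unless it is named.

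Embryos pair across groups because the sums come from the same animal, and the fits hold that block. Without the replicate block, dividing cell-like against cluster 4 called 990 genes, cluster 5 against 4 called 1207, cluster 9 against 2 called 542 and S against neither called 263. In the first of these SLC1A3 (-0.57) and TNC (-0.59) lost their calls, as they did with DESeq2 (-0.54 and -0.56), and TNC also without the highest doublet scores (-0.47).

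In DLX-positive against midbrain or isthmus cells, DESeq2 called 514 genes and states in place of phases 553. TNC reversed there to -0.50 with thinned cells and -0.46 with clusters in place of phases, where FABP7 reversed to -0.42. With clusters 5 and 12 included, S called 892 genes, and the 95th percentile called 550 genes in G2/M and moved TNC in S to -0.27.

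Leaving out an embryo (fewer samples) gave 261 to 651 genes called in DLX-positive against midbrain or isthmus cells, 87 to 173 in G2/M and 45 to 96 in S. In cluster 4 against neuron-like classes, where no residual degrees of freedom remained for a test, FABP7 ran from 2.34 to 2.70, NES from 3.18 to 3.61 and VIM from 2.93 to 3.23. NES ran from -0.041 to 0.20 in dividing cell-like cells against cluster 4 and from -0.089 to 0.53 in cluster 12 against 4. SLC1A3 ran from -1.32 to -0.50 and TNC from -0.68 to 0.81 in DLX-positive against midbrain or isthmus cells. The highest cluster stayed for 4 to 5 of the genes: without embryo 2, NES was highest in cluster 12.

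Reclustering cells with at least 1000 genes gave no radial glia cluster, and the gates within cluster 4 held too few cells per phase, so neither gave a value. The phase comparisons with G1 were not run under any alternative. Depth limits TNC and SLC1A3 most, with 849 and 2019 UMIs in all.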
